A study of Mus musculus with 1470 samples.

Results

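The 7 genes described here encode the receptors for colony-stimulating factors and FLT3 ligand, with both ligands of the macrophage receptor. They were chosen by gene symbol from the 14915 gene rows of an expression table of single mouse liver cells, and each had 1 row. They are Csf1 and Il34, which encode the ligands CSF1 and IL-34, their shared receptor Csf1r, the FLT3 receptor Flt3, the GM-CSF receptor chains Csf2ra and Csf2rb, and the G-CSF receptor Csf3r. The cells were non-parenchymal cells (NPCs) from male wild-type C57BL/6J mice, of which 3 had been fed a normal diet (ND) and 3 a high-fat diet (HFD) with 60% of calories from fat for 9 weeks from 5 weeks of age. The livers were digested by perfusion with collagenase, most hepatocytes were pelleted, and live cells were sorted singly into plates for Smart-seq2, which reads whole transcripts and uses no unique molecular identifiers. The table held 718 cells of ND mice and 752 of HFD mice, and the names of the cells of 5 mice begin with a prefix of their own while those of HFD mouse 2 carry none. The labels do not say what the prefixes stand for, and any batch that follows them cannot be told apart from the mouse.

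Signals through these receptors control how many myeloid cells are made and how long they live. CSF1R is the growth factor receptor on which tissue macrophages, including Kupffer cells (KCs), depend, and CSF1 and IL-34 are alternative ligands for it. FLT3 and its ligand drive the development of dendritic cells, G-CSF and its receptor that of neutrophils, and the GM-CSF receptor pairs a ligand-binding alpha chain with a beta chain that the IL-3 and IL-5 receptors share.

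Promoter sequence is shown for 3 receptors whose transcripts peaked in different cells: Csf3r in neutrophil-like, Csf2ra in macrophage-like and Flt3 in dendritic cell-like cells. Each is the 250 bases before 1 annotated start, 5′ to 3′ on the strand of the gene, from RefSeq promoters on GRCm38.p6, the assembly of mm10. Capitals mark GAGGAA, a core to which PU.1 (Spi1), the myeloid ETS factor, can bind, searched on both strands.
Csf3r (chr4:126024409-126024658, plus strand): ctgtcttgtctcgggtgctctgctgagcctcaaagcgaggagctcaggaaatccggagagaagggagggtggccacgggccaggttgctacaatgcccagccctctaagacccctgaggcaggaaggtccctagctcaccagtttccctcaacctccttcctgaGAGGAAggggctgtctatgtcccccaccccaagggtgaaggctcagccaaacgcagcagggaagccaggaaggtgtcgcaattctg
Csf2ra (chr19:61228419-61228668, minus strand): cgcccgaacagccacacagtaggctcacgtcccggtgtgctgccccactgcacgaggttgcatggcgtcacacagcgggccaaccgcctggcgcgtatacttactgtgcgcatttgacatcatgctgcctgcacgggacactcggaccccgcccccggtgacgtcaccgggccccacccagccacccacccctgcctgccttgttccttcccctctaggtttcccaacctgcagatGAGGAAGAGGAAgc
Flt3 (chr5:147400490-147400739, minus strand): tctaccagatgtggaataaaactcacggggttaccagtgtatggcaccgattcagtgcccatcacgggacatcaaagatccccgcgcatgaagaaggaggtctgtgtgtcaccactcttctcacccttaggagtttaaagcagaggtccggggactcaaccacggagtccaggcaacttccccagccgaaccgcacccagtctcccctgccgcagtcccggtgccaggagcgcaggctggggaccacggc
The Csf2ra promoter held 2 adjacent copies that began 14 and 8 bases before the start, the Csf3r promoter held 1 copy 86 bases before it, and the Flt3 window held 0. Of all 32851 promoter windows of this length, 23.3% held the 6 letters at least once, so that a match is common. The longer form GAGGAAGT, held by 2.44% of windows, and TTGCNNAA, the C/EBP form, held by 9.56%, were in none of the 3.

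All 1470 cells fell into 11 classes, which were rebuilt by clustering without the 7 genes and named from marker genes. They comprised 475 endothelial-like, 247 B cell-like, 240 KC-like, 52 erythrocyte-like, 44 NK-like, 34 hepatocyte-like, 24 monocyte-derived macrophage-like, 22 plasmacytoid dendritic cell-like (pDC-like), 19 conventional dendritic cell-like (cDC-like) and 16 neutrophil-like cells, and T cell-like cells, which were 20.2% of all cells. No cluster was named from markers of stellate cells or fibroblasts, cholangiocytes, or mast cells and basophils. The estimated depth was 59456 to 279564 exon reads per cell as a median of each class, lowest in erythrocyte-like and highest in cDC-like cells. Cells of HFD mouse 2 had the fewest genes with RPKM (reads per kilobase of transcript, scaled to the reads of the cell) of at least 1, with a median of 1595.5 against 2363.5 to 3163 in the other mice. Levels are given below as the mean log2(RPKM + 1) of the cells of a class in a mouse, and the mouse was the replicate, with n the number of mice that had at least 3 cells of the class. The labels say no more of the mice than their diet and number. Class p-values measure how far class differences varied among these 6 mice, with that spread pooled over all classes. Diet p-values measure the spread between mice of the same diet.

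The ligand Csf1 (chromosome 3, 107741048 to 107760469 on GRCm38.p6, as for the other genes) was detected mainly in endothelial-like cells, and its highest level per cell was in neutrophil-like cells. Il34 (chromosome 8, 110741829 to 110805949) was almost absent from the cells sampled. In endothelial-like cells, Csf1 was at 2.64, 1.49 and 1.85 in ND mice 1, 2 and 3 and at 1.86, 1.57 and 1.08 in HFD mice 1, 2 and 3. In 5 of these 6 mice the level lay between 1.08 and 1.86. RPKM was at least 1 in 35.6% of the 475 endothelial-like cells, and among these the median was 39.8 RPKM. This class was 32.3% of all cells and held 83.7% of the summed Csf1 RPKM. Neutrophil-like cells, 1.09% of all cells, held 7.84% of it, and T cell-like cells, in which 11.8% of cells had Csf1, held 4.80%, or 2.18% without HFD mouse 1.

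Neutrophil-like cells had Csf1 at 4.31 in ND mouse 2, 5.04 in HFD mouse 1 and 2.91 in HFD mouse 3, the mice with at least 3 such cells. The other 3 mice had 2 neutrophil-like cells each, and the level in them was 7.57 in ND mouse 1 and 0 in ND mouse 3 and HFD mouse 2. The transcript was thus found in 8 of 16 cells from 4 of 6 mice, at 21.7 to 707 RPKM. Compared with the mean of the other classes, Csf1 was higher by 3.66 ± 0.29 (SE) on the log2(RPKM + 1) scale in neutrophil-like cells (limma, adjusted p = 4.06e-14). It was higher by 0.98 ± 0.21 in endothelial-like cells (limma, adjusted p = 0.000226), with the endothelial-like level above that mean in 6 of 6 mice (exact two-sided sign-flip permutation test, p = 0.031, the smallest that 6 mice allow). In the order of levels, neutrophil-like cells stood above endothelial-like cells by 2.44 ± 0.34 (limma, adjusted p = 2.2e-07) and endothelial-like above hepatocyte-like cells by 1.03 ± 0.31 (limma, adjusted p = 0.0117). The 9 lower classes, at means of 0.22 to 0.79, did not differ from their neighbours in the order. The neutrophil-like mean rests on 3 mice, for which an exact test cannot go below p = 0.25. When units of 1 or 2 cells were included, the endothelial-like difference was 0.92 but no longer passed (limma, adjusted p = 0.396).

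In KC-like cells, the class that carries most of the CSF1 receptor transcript, Csf1 was at 1.06 in ND mouse 1 and at 0.05 to 0.27 in the other 5 mice. The share of KC-like cells with at least 1 RPKM was 39.6% in ND mouse 1, which also had the highest endothelial-like level, and 3.12% to 9.62% elsewhere. Only 2.08% of KC-like cells reached 10 RPKM, against 25.7% of endothelial-like cells.

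Il34 was detected in 7 of 1470 cells (0.476%). Endothelial-like cells gave 6 of them, from ND mice 2 and 3 and HFD mice 1 and 3, at 1.93 to 204.3 RPKM, and the seventh was a hepatocyte-like cell of HFD mouse 3 at 4.75 RPKM. The transcript was in 1.26% of endothelial-like cells. In KC-like cells it was in 0 of 240, which allows a share of up to 1.25% as far as counting error goes, and in T cell-like cells the same count of 0 puts that bound at 1.01%. Il34 did not pass the filter on low values, so that its class differences were not part of the test, and 6 of the 7 genes were tested.

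**Figure D1:**
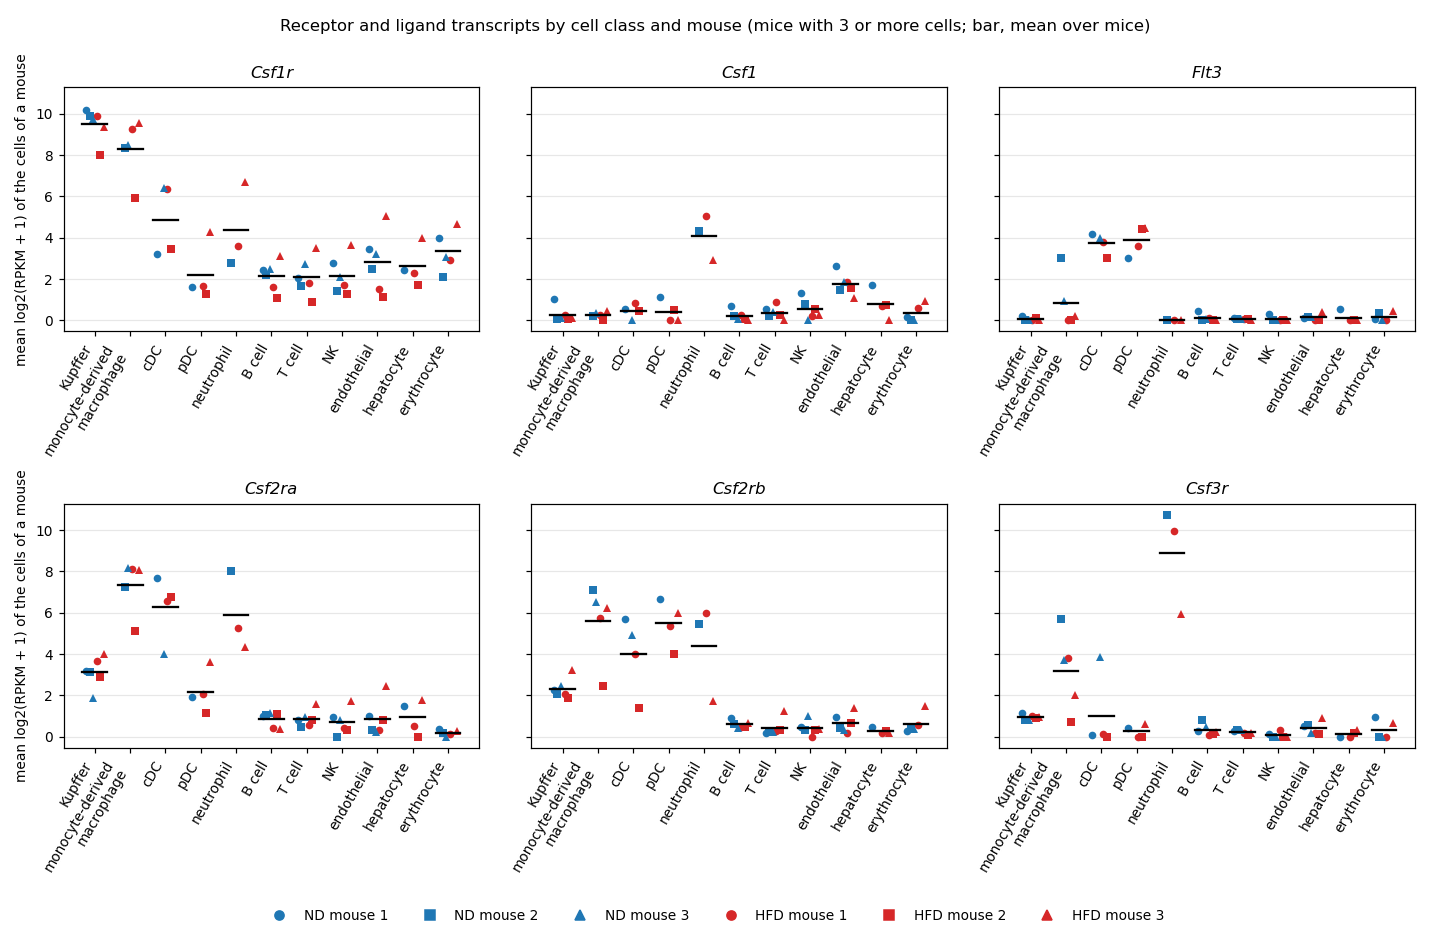
Mean log2(RPKM + 1) of 6 genes (panels) in 11 cell classes (horizontal axis). Points are mice with at least 3 cells of the class, blue for ND and red for HFD with a marker shape per mouse number, and bars are means over mice. Csf1r stands at 7.995 to 10.20 in KC-like cells, Csf3r is highest in neutrophil-like cells, and Flt3 is at most 0.94 outside pDC-like and cDC-like cells, apart from ND mouse 2 at 3.03 in monocyte-derived macrophage-like cells.

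The receptor Csf1r (chromosome 18, 61105572 to 61131139) was the most widely detected of the 7 transcripts, in 76.9% of all cells, and was highest in KC-like and monocyte-derived macrophage-like cells. In KC-like cells it was at 10.20, 9.89 and 9.73 in ND mice 1, 2 and 3 and at 9.91, 7.995 and 9.35 in HFD mice 1, 2 and 3. HFD mouse 2 stood below the others, and 87.5% of its KC-like cells had at least 1 RPKM, against 100% in each of the other mice. The difference from the mean of the other classes was 6.05 ± 0.33 (limma, adjusted p = 9.56e-21), and KC-like cells were higher in 6 of 6 mice (exact two-sided sign-flip permutation test, p = 0.031). KC-like cells were 16.3% of all cells and held 87.2% of the summed Csf1r RPKM.

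Monocyte-derived macrophage-like cells followed, with Csf1r at 8.33 and 8.49 in ND mice 2 and 3 and at 9.26, 5.92 and 9.56 in HFD mice 1, 2 and 3. They were above the mean of the other classes by 4.74 ± 0.36 (limma, adjusted p = 3.95e-15). KC-like cells exceeded them by 1.19 ± 0.46, which did not pass (limma, adjusted p = 0.0561), and both classes overlapped between mice. The step down from monocyte-derived macrophage-like to cDC-like cells was 3.20 ± 0.51 (limma, adjusted p = 1.07e-05). In cDC-like cells Csf1r was at 3.21 in ND mouse 1, 6.43 in ND mouse 3, 6.36 in HFD mouse 1 and 3.43 in HFD mouse 2. Their difference from the other classes was 1.23 ± 0.40 (limma, adjusted p = 0.0107), while the median of all 7302 genes tested was 0.81 higher in these deeply sequenced cells. It did not pass without HFD mouse 1 (0.74, limma, adjusted p = 0.166) or without ND mouse 3 (0.88, limma, adjusted p = 0.137), and was 1.95 without ND mouse 1. Below cDC-like cells, no class differed from its neighbour in the order, which ran from neutrophil-like at 4.35 ± 2.07 (SD, n = 3) to T cell-like at 2.12 ± 0.91 (SD, n = 6).

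In each of these lower classes, Csf1r was still found in most cells. At least 1 RPKM was present in 71.7% of T cell-like cells, 68.8% of B cell-like cells and 71.2% of endothelial-like cells, but the median level was 2.82, 3.64 and 3.73 RPKM, against 1091 RPKM in KC-like cells. Of T cell-like cells, 10.8% reached 10 RPKM. To set this beside transcripts that lymphocytes should lack, the mean RPKM of Csf1r and of 6 KC markers (Clec4f, C1qa, C1qb, C1qc, Cd5l and Vsig4) was expressed as a percentage of that in KC-like cells of the same mouse. In T cell-like cells Csf1r stood at 0.484% and the marker median at 0.445% (medians of 6 mice). In B cell-like cells they were 0.529% and 0.570%, and in NK-like cells 0.353% and 0.345%. The ratio of Csf1r to the markers, which is 1 in KC-like cells by construction, had a median of 1.15 in T cell-like cells (range 0.363 to 1.80, n = 6 mice), 0.978 in B cell-like cells (range 0.880 to 1.39) and 1.13 in NK-like cells (range 0.541 to 1.997). The part of KC transcripts from outside the cell in these levels was not tested.

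In monocyte-derived macrophage-like cells the same comparison gave 52.8% for Csf1r and 0.158% for the markers, and the ratio was 239.1 (range 19.3 to 486, n = 5 mice). In cDC-like cells it was 9.11% against 0.247%, with a ratio of 61.01 (range 3.37 to 90.2, n = 4). The 6 markers helped to name the KC-like class and, unlike Csf1r, were not kept out of the clustering. Low marker shares in other classes therefore follow in part from how the classes were made. Endothelial-like cells had 2.34% against 1.06%, with a ratio of 1.96 that ranged from 0.951 to 4.42 over 6 mice. Neutrophil-like cells ranged from 1.06 to 7.95 in this ratio, and in HFD mouse 3, where their Csf1r was highest at 6.70, the KC markers stood at 18.1% of the KC-like level. HFD mouse 3 had the highest KC marker level of the mice in B cell-like, T cell-like, NK-like, endothelial-like, neutrophil-like and pDC-like cells, but not in monocyte-derived macrophage-like cells, where ND mouse 3 stood at 2.74% and HFD mouse 3 at 0.990%. The markers were at 8.60% of the KC-like level in endothelial-like cells of HFD mouse 3, where Csf1r was 5.07. The Csf1r values of HFD mouse 3 were the highest of the 6 mice in T cell-like, B cell-like, NK-like and endothelial-like cells.

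**Figure D2:**
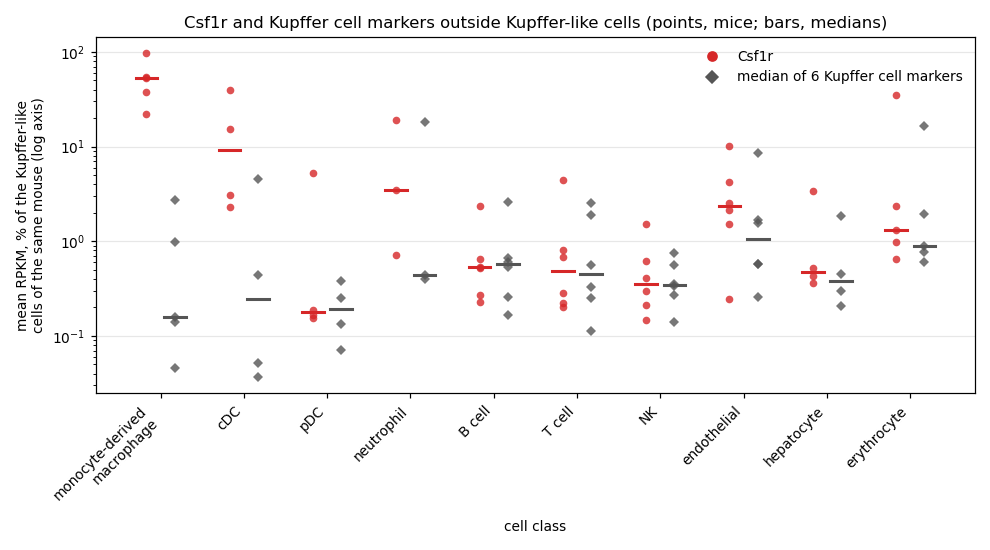
Mean RPKM of Csf1r (red circles) and the median of 6 KC markers (grey diamonds) in 10 cell classes, as a percentage of KC-like cells of the same mouse, on a log axis. Points are mice with at least 3 cells of the class and bars are medians. Both stand at similar levels in B, T and NK cell-like cells, whereas in monocyte-derived macrophage-like cells Csf1r is at 52.8% and the markers at 0.158%.

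The FLT3 receptor Flt3 (chromosome 5, 147330741 to 147400489) had its highest levels in the dendritic classes. Of the summed Flt3 RPKM, pDC-like cells held 47.0% and cDC-like cells 30.1%, monocyte-derived macrophage-like cells 12.05%, B cell-like cells 4.41% and endothelial-like cells 4.04%. Several of these shares rested on 1 mouse: that of monocyte-derived macrophage-like cells was 0.42% without ND mouse 2, that of B cell-like cells 0.34% without ND mouse 1, that of cDC-like cells 17.8% without ND mouse 3 and that of endothelial-like cells 2.10% without HFD mouse 3. The dendritic classes gave 12 and 11 of the 86 cells with at least 1 RPKM. In pDC-like cells it was at 3.01 in ND mouse 1 and at 3.60, 4.42 and 4.48 in HFD mice 1, 2 and 3. In cDC-like cells it was at 4.17 and 3.98 in ND mice 1 and 3 and at 3.79 and 3.04 in HFD mice 1 and 2. The 4 values of each class overlapped, and pDC-like and cDC-like cells differed by 0.13 ± 0.38 (limma, adjusted p = 0.838). Compared with the other classes, Flt3 was higher by 3.41 ± 0.28 in pDC-like cells (limma, adjusted p = 5.02e-14) and by 3.26 ± 0.28 in cDC-like cells (limma, adjusted p = 1.04e-12). Detection was partial within both, in 12 of 22 pDC-like and 11 of 19 cDC-like cells. The 2 cDC-like cells of HFD mouse 3 and the single pDC-like cells of ND mice 2 and 3 had less than 1 RPKM.

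Monocyte-derived macrophage-like cells had Flt3 in 4 of 24 cells, and the level was 3.03 in ND mouse 2 but 0 to 0.94 in the other 4 mice with at least 3 cells. The step from cDC-like to these cells was 2.97 ± 0.36 (limma, adjusted p = 3.21e-08). Elsewhere the class means were at most 0.18, with Flt3 in 2.08% of KC-like, 3.70% of T cell-like and 4.63% of endothelial-like cells, and in 0 of 16 neutrophil-like cells, which by counting error alone allows a share of cells with detected Flt3 of up to 18.8%. Flt3 reached the filter on low values, a mean of 0.5 over the units of class and mouse, only through these dendritic classes: the mean was 0.70 with all classes, 0.45 without pDC-like and 0.47 without cDC-like cells. Its calls there therefore follow from the filter and are given as a description. Without the classes where they were called higher, Csf1 (0.39) and Csf3r (0.41) would not have reached it either. With no filter, so that every gene of the table was tested, the differences of Flt3 were 3.41 ± 0.24 in pDC-like (limma, adjusted p = 1.9e-14) and 3.26 ± 0.25 in cDC-like cells (limma, adjusted p = 5.43e-13).

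The FLT3 ligand gene Flt3l, not one of the 7, was highest in T cell-like cells, at 4.10 ± 0.87 (SD, n = 6), followed by NK-like cells at 2.89 ± 1.56 (SD, n = 6). The differences from the other classes were 2.76 ± 0.35 (limma, adjusted p = 1.62e-08) and 1.44 ± 0.35 (limma, adjusted p = 0.00251). In the T cell-like class 54.9% of cells had Flt3l and 3.70% had Flt3, whereas in the pDC-like class 31.8% had Flt3l and 54.5% had Flt3. Ligand and receptor transcripts therefore peaked in different classes, and 5 of 22 pDC-like cells had both.

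The GM-CSF receptor alpha chain Csf2ra (chromosome 19, 61217191 to 61228461) was highest in monocyte-derived macrophage-like cells. It was at 7.23 and 8.15 in ND mice 2 and 3 and at 8.12, 5.11 and 8.07 in HFD mice 1, 2 and 3, above the other classes by 5.23 ± 0.40 (limma, adjusted p = 7.1e-15). In cDC-like cells it was at 6.26 ± 1.57 (SD, n = 4), higher by 4.17 ± 0.45 (limma, adjusted p = 4.9e-10). In neutrophil-like cells it was at 8.04, 5.27 and 4.32 in ND mouse 2 and HFD mice 1 and 3, higher by 3.35 ± 0.52 (limma, adjusted p = 2.65e-06). Neither neighbouring pair among these 3 classes passed, but monocyte-derived macrophage-like cells exceeded neutrophil-like cells by 1.71 ± 0.63 (limma, adjusted p = 0.0451). The step from neutrophil-like to KC-like cells was 2.56 ± 0.61 (limma, adjusted p = 0.00216).

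In KC-like cells Csf2ra was at 3.18, 3.12 and 1.87 in ND mice 1, 2 and 3 and at 3.67, 2.90 and 3.997 in HFD mice 1, 2 and 3. The difference from the other classes was 0.54 ± 0.37 (limma, adjusted p = 0.418). RPKM of at least 1 was found in 52.5% of KC-like cells, with a median of 67.1 RPKM among them, while T cell-like cells had it in 22.2%, with a median of 5.47 RPKM. The median depth was 97464 exon reads in KC-like and 141278 in T cell-like cells. Of the Csf2ra RPKM summed over all cells, KC-like cells, which were 16.3% of the cells, held 51.3%. Monocyte-derived macrophage-like cells, which were 1.63%, held 12.3%, endothelial-like cells 10.8% (6.15% without HFD mouse 2) and cDC-like cells 9.12%. The class with the highest level per cell was therefore not the one that held most of the transcript.

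The shared beta chain Csf2rb (chromosome 15, 78325800 to 78351001) was higher than in the other classes in 4 of 11 classes. The class means were 5.61 ± 1.83 (SD, n = 5) in monocyte-derived macrophage-like, 5.50 ± 1.13 (SD, n = 4) in pDC-like, 4.39 ± 2.32 (SD, n = 3) in neutrophil-like and 4.003 ± 1.88 (SD, n = 4) in cDC-like cells. Within these classes the spread between mice was wide, for example 2.45 in HFD mouse 2 and 7.10 in ND mouse 2 in monocyte-derived macrophage-like cells. No pair of neighbours among them differed. Against the other classes, the differences were 3.76 ± 0.43 in monocyte-derived macrophage-like cells (limma, adjusted p = 1.04e-09) and 3.68 ± 0.48 in pDC-like cells (limma, adjusted p = 2.89e-08). They were 2.20 ± 0.55 in neutrophil-like (limma, adjusted p = 0.00354) and 2.02 ± 0.48 in cDC-like cells (limma, adjusted p = 0.000548). The first did not pass with units weighted by their cells (limma, adjusted p = 0.155), nor the second with log2 of the mean RPKM (limma, adjusted p = 0.164). In neutrophil-like cells Csf2rb was above the mean of the other classes in 2 mice and below it in 1, with an SD of 2.64 between mice. The step from cDC-like to KC-like cells, at 2.32 ± 0.48 (SD, n = 6), was 1.78 ± 0.59 (limma, adjusted p = 0.0124), and that from KC-like to endothelial-like cells was 1.67 ± 0.52 (limma, adjusted p = 0.0212). Of the summed Csf2rb RPKM, KC-like cells held 42.7%, endothelial-like cells 17.04% (9.74% without HFD mouse 2), monocyte-derived macrophage-like cells 12.2%, neutrophil-like cells 12.1% and pDC-like cells 7.81%.

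Csf2rb2, which encodes the IL-3-specific mouse beta chain, is nearly identical in sequence to Csf2rb and lies beside it, and since reads had to map uniquely the split of reads between them is uncertain. Csf2rb2 was highest in pDC-like cells, at 6.38 ± 1.70 (SD, n = 4), by 5.29 ± 0.40 over the other classes (limma, adjusted p = 3.68e-15) and by 2.94 ± 0.54 over cDC-like cells (limma, adjusted p = 6.9e-05). Of the 18 pDC-like cells with Csf2rb, 18 also had Csf2rb2, whereas of the 20 such monocyte-derived macrophage-like cells 8 did.

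Both chains of the GM-CSF receptor were found together most often in monocyte-derived macrophage-like cells. There 20 of 24 cells (83.3%) had both Csf2ra and Csf2rb, and all 20 cells with Csf2rb had Csf2ra. In cDC-like cells 12 of 19 (63.2%) had both, in neutrophil-like cells 6 of 16 (37.5%) and in KC-like cells 70 of 240 (29.2%). In pDC-like cells 18 of 22 had Csf2rb but 8 had Csf2ra, and 6 (27.3%) had both. In T cell-like cells 5.39% had both. The ligand gene Csf2 was detected in 39 of 1470 cells, of which 26 were T cell-like, or 8.75% of that class.

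**Figure D3:**
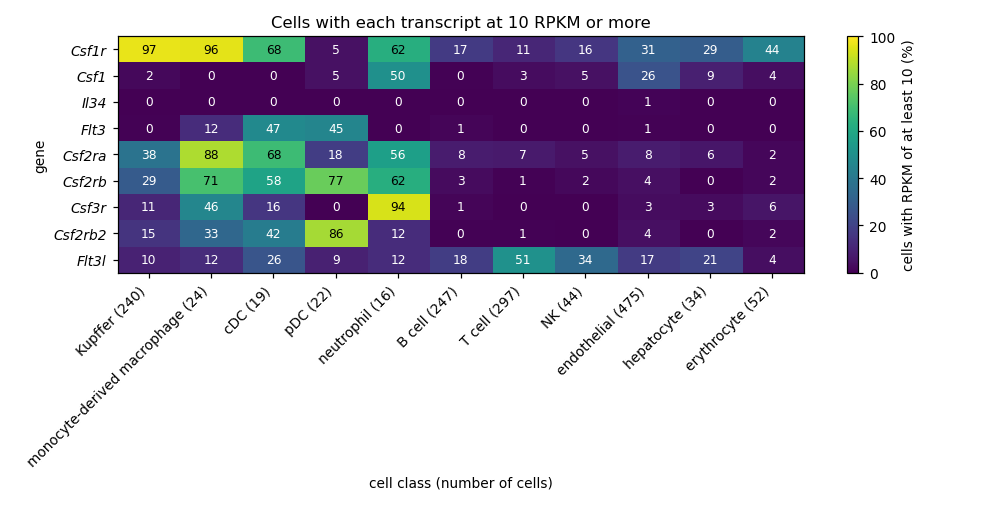
Share of cells (%, color and numbers) with RPKM of at least 10 for the 7 genes and for Csf2rb2 and Flt3l (rows) in each cell class (columns, with the number of cells). The Csf1r signal that was present at 1 RPKM in most lymphocytes falls to 10.8% of T cell-like cells at this threshold, and Csf3r stands at 93.8% in neutrophil-like cells.

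The G-CSF receptor Csf3r (chromosome 4, 126023441 to 126044975) separated the classes by the widest margin of the 7 genes and marked neutrophil-like cells. Its level was 10.75 in ND mouse 2, 9.95 in HFD mouse 1 and 5.95 in HFD mouse 3. In the 3 mice with 2 neutrophil-like cells each it was 10.46 to 11.20. HFD mouse 3 was thus the only low one, and its neutrophil-like cells were those in which KC markers stood at 18.1% of the KC-like level. In all, 15 of 16 neutrophil-like cells had Csf3r, with a median of 1992 RPKM among them. The difference from the other classes was 8.07 ± 0.55 (limma, adjusted p = 1.67e-16). Without neutrophil-like and monocyte-derived macrophage-like cells Csf3r had a mean of 0.41, below the filter on low values. Its higher calls in both therefore follow from the filter and are given as a description. With no filter the differences were 8.07 ± 0.56 in neutrophil-like (limma, adjusted p = 1.5e-14) and 1.87 ± 0.44 in monocyte-derived macrophage-like cells (limma, adjusted p = 0.00192).

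In monocyte-derived macrophage-like cells Csf3r was at 5.68 and 3.73 in ND mice 2 and 3 and at 3.80, 0.69 and 1.997 in HFD mice 1, 2 and 3, higher than in the other classes by 1.87 ± 0.43 (limma, adjusted p = 0.00066). Without HFD mouse 3 it was 3.05, but there the neutrophil-like class, in which Csf3r was highest, had too few mice and left the comparison. Without HFD mouse 2, ND mouse 1 or ND mouse 3, where that class stayed, the difference was 1.86 to 2.41. The step from neutrophil-like cells down to them was 5.63 ± 0.66 (limma, adjusted p = 7.13e-09), and the next, to cDC-like cells, was 2.08 ± 0.61 (limma, adjusted p = 0.0113). KC-like cells were at 0.93 ± 0.13 (SD, n = 6), and 23.8% of them had at least 1 RPKM, against 11.1% of T cell-like cells and 12.2% of endothelial-like cells.

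Counted by class, only the calls of Csf1r, Csf2ra and Csf2rb do not follow from the filter, since Flt3, Csf1 and Csf3r passed it through the classes where they were high. These 3 genes gave 10 of the 16 higher calls. In monocyte-derived macrophage-like cells all 3 were higher than in the other classes, as was Csf3r, against 20.5% of all 7302 genes tested. In neutrophil-like cells 2 of the 3 were higher (Csf2ra and Csf2rb), besides Csf1 and Csf3r, against 6.82% of all genes. In cDC-like cells all 3 were higher, besides Flt3, but 43.5% of all genes were called higher in this class. These shares of all genes depend on the scale: with log2 of the mean RPKM, 2.96% were called higher in cDC-like, 3.16% in neutrophil-like, 5.59% in pDC-like, 5.72% in NK-like, 6.11% in monocyte-derived macrophage-like, 10.97% in KC-like, 19.1% in B cell-like, 24.9% in endothelial-like and 30.6% in T cell-like cells. In pDC-like cells 1 of the 3 was higher (Csf2rb), besides Flt3, against 21% of all genes. Only Csf1r was called higher in KC-like cells, where 4.75% of all genes were, and only Csf1 in endothelial-like cells, where 9.78% were. In T cell-like, NK-like and B cell-like cells 0 of the 6 were higher, against 9.97%, 7.11% and 4.77% of all genes. Lower calls were more frequent, at 34 of 66 gene and class pairs against 16 higher. For Flt3, Csf1 and Csf3r they too follow largely from the filter, since the mean compared against holds the classes where these genes were high. The lower counts cover all 6 genes and are a description, for which the share of all genes is no like measure. Lower calls made up 5 of 6 genes in T cell-like (5.27% of all genes were lower there), 5 in NK-like (7.42%), 6 in B cell-like (4.66%) and 5 in endothelial-like cells (6.40%). In KC-like cells 2 were lower (3.74% of all genes), in neutrophil-like 1 (8.46%), in pDC-like 1 (5.05%), in cDC-like 0 (2.41%) and in monocyte-derived macrophage-like cells 0 (3.92%). In erythrocyte-like cells 6 were lower (35.6% of all genes) and in hepatocyte-like cells 3 (15.6%). Of the 5 receptor genes, at least 3 reached 10 RPKM in 70.8% of monocyte-derived macrophage-like, 57.9% of cDC-like, 50% of neutrophil-like, 19.2% of KC-like and 4.55% of pDC-like cells, and in 0% of T cell-like cells, where a count of 0 allows up to 1.01%.

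Across the 11 class means, the genes whose pattern was most like each of the 6 were found among 8805 genes with a mean of at least 1 in some class. For Csf1r they were Ear2, Lrp1, Pilrb1, Treml4 and Emr4, with Pearson r of 0.955 to 0.979. For Flt3 they included Rab33b, Cd209a, E030024N20Rik and Scd2, with r of 0.973 to 0.982. Csf2ra was followed most closely by Cd300a, Tgfbi, Ap1s2, Spi1 and Nadk (r of 0.956 to 0.987), and Csf2rb by Pirb, Tpd52, Alox5ap, Rbm47 and Evi2a (r of 0.963 to 0.979). For Csf3r they were Gm16894, Gp49a, E030018B13Rik, Sgms2 and C130050O18Rik (r of 0.987 to 0.993), and for Csf1 they were Spats2, Hdc, Vsig10, Aatk and Angpt2 (r of 0.963 to 0.984). The classes share libraries and differ in depth, and Ear2, Hdc and Cd209a were among the markers that named classes. Between the receptors themselves, r was 0.83 for Csf2ra with Csf2rb, 0.65 for Csf1r with Csf2ra and -0.03 for Csf1r with Flt3.

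The wider pathway was described with a list of 41 further ligands, receptors, signal transducers, inhibitors and transcription factors, of which 36 were in the table and 30 passed the filter. In monocyte-derived macrophage-like cells 17 of 30 (56.7%) were higher than in the other classes, beside 20.5% of all genes, and 0 were lower, beside 3.92%, and the median difference was 1.20, against 0.21 over all genes. In neutrophil-like cells 11 (36.7%) were higher, beside 6.82% of all genes, and 1 lower, beside 8.46%, with a median of 0.61 against -0.38 over all genes. In KC-like cells 5 (16.7%) were higher, beside 4.75% of all genes, and 1 lower, beside 3.74%, with medians of -0.51 and -0.29. In cDC-like cells 17 (56.7%) were higher, beside 43.5% of all genes, and 0 lower, beside 2.41%, with medians of 1.43 and 0.81. In pDC-like cells 9 (30%) were higher, beside 21% of all genes, and 1 lower, beside 5.05%, with medians of 0.15 and 0.26. Genes of the list were also called higher in lymphoid classes: 6 (20%) were higher and 10 lower in T cell-like cells, beside 9.97% and 5.27% of all genes, and 4 (13.3%) were higher and 6 lower in NK-like cells, beside 7.11% and 7.42%. In B cell-like cells 2 (6.67%) were higher and 4 lower, beside 4.77% and 4.66% of all genes, and in endothelial-like cells 2 were higher and 11 lower, beside 9.78% and 6.40% of all genes. Medians of the list and of all genes were -0.29 and 0.10 in T cell-like and -0.39 and -0.14 in NK-like cells. They were -0.43 and -0.19 in B cell-like and -0.55 and -0.09 in endothelial-like cells. In hepatocyte-like cells 1 was higher and 14 lower, beside 6.29% and 15.6% of all genes. In erythrocyte-like cells 0 were higher and 18 lower, beside 0.945% and 35.6%. Spi1, which encodes PU.1, was higher by 5.26 ± 0.41 in monocyte-derived macrophage-like (limma, adjusted p = 1.53e-14), by 5.01 ± 0.46 in cDC-like (limma, adjusted p = 8.53e-12) and by 4.09 ± 0.53 in neutrophil-like cells (limma, adjusted p = 6.78e-08). In KC-like cells it was higher by 2.62 ± 0.38 (limma, adjusted p = 5.51e-07).

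Among the listed receptors, Kit, the receptor for stem cell factor, was highest in endothelial-like cells at 4.52 ± 1.04 (SD, n = 6), by 3.25 ± 0.34 over the other classes (limma, adjusted p = 4.78e-11). Its ligand gene Kitl was also highest there, at 0.89 ± 0.43 (SD, n = 6), and did not pass the filter. Il3ra, the IL-3 receptor alpha chain, was higher in cDC-like cells by 1.47 ± 0.28 (limma, adjusted p = 3.96e-05) and in endothelial-like cells by 1.06 ± 0.23 (limma, adjusted p = 0.000381). The mean of the endothelial markers in cDC-like cells was 6.50 in the highest mouse, with a median of 2.11 over mice. In endothelial-like cells it was 7.37 to 8.83. The part of endothelial transcripts in the cDC-like level of Il3ra was not tested. Il5ra, the alpha chain for IL-5, was highest in B cell-like cells at 0.83 ± 0.50 (SD, n = 6). Pdgfrb and Sdc1 had class means of at most 0.42 and 0.98. Csf3, Il3, Il5, Pdgfra and Ptprz1 had no row in the table used.

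The effect of diet was compared within the 4 classes with at least 5 cells in each of 3 mice per diet, and 0 of 13 differences of these genes passed (limma, adjusted p of at least 0.996, with 0 below an unadjusted 0.05). The share of all genes called was 0% in KC-like, 0% in endothelial-like, 0% in T cell-like and 0% in B cell-like cells, of 6003, 7251, 7157 and 6430 genes tested. An unadjusted p under 0.05 was reached by 3.12%, 1.93%, 3.40% and 4.70% of these genes. In a simulation of the KC-like comparison, 66.5% of genes shifted by 2 on the log2 scale were called, so that smaller differences could be missed.

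In KC-like cells Csf1r averaged 9.94 ± 0.24 in ND and 9.08 ± 0.98 in HFD mice (SD, n = 3 each). The difference of -0.86 ± 0.48 (SE) was within the spread between mice (limma, adjusted p = 0.996), and HFD mouse 1 at 9.91 lay among the ND mice. Without HFD mouse 2 the difference was -0.31, so that this library set most of its size. Csf2ra went the other way, at 2.72 ± 0.74 in ND and 3.52 ± 0.56 in HFD mice (SD, n = 3 each), a difference of 0.80 ± 0.46 (SE, limma, adjusted p = 0.996) with overlapping groups. Without ND mouse 3, which had the lowest value, it was 0.37. Csf2rb was at 2.25 ± 0.20 and 2.396 ± 0.73, and Csf3r at 0.91 ± 0.21 and 0.95 ± 0.04. Exact permutation tests of 3 against 3 mice, which cannot go below p = 0.1, gave p = 0.3 for both Csf1r and Csf2ra.

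In endothelial-like cells Csf1 was at 1.99 ± 0.59 in ND and 1.504 ± 0.39 in HFD mice (SD, n = 3 each), with a difference of -0.49 ± 0.38 (SE, limma, adjusted p = 0.9997). The ND and HFD values overlapped, and without ND mouse 1 the difference was -0.17. The share of these cells with Csf1 was 35.3% ± 12.7 in ND and 32.1% ± 8.28 in HFD mice. For Csf1r in the same class, HFD mouse 3 at 5.07 was above and HFD mice 1 and 2, at 1.54 and 1.11, were below all ND mice, and the difference of -0.47 ran from -1.72 without HFD mouse 3 to 0.26 without HFD mouse 2, with 0.05 without HFD mouse 1. The diet difference was also compared between classes for these genes, in 15 tests, and 0 passed (limma, smallest adjusted p = 0.979). Neutrophil-like, dendritic and monocyte-derived macrophage-like cells did not reach the chosen floor of 5 cells in each of 3 mice per diet, so they were not tested between diets.

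**Figure D4:**
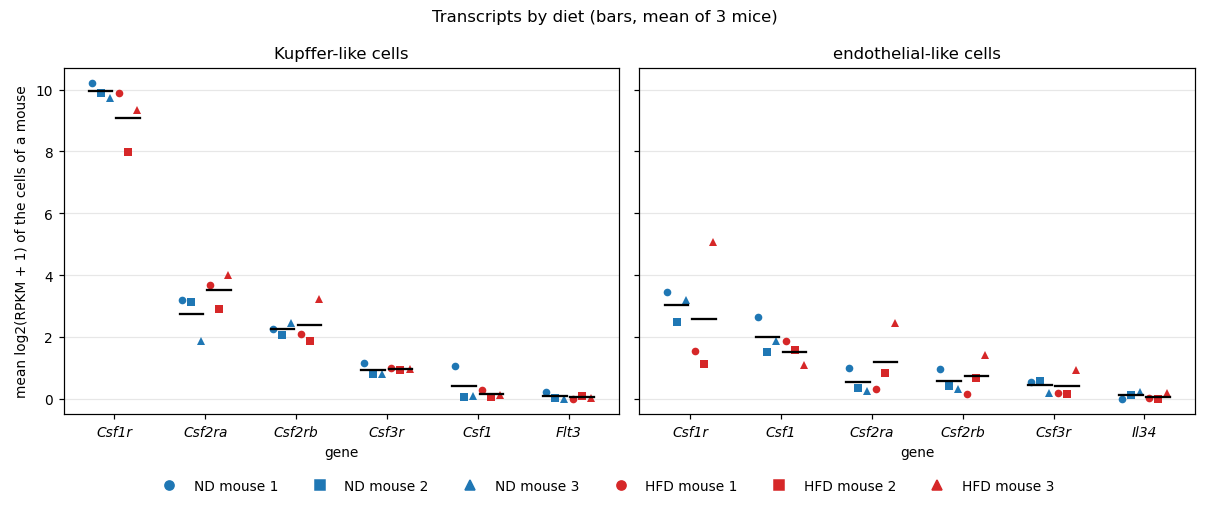
Mean log2(RPKM + 1) per mouse of 6 genes in KC-like (left) and endothelial-like cells (right). Blue points are ND and red points HFD mice, with a marker shape per mouse number, and bars are means of 3 mice. The diets overlap for Csf1r, Csf2ra and Csf2rb in KC-like cells and for Csf1 in endothelial-like cells, with HFD mouse 2 lowest for Csf1r.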

How the data were processed

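The authors sequenced single mouse liver cells with Smart-seq2 (50 base single reads), used STAR (v2.4.2) for alignment to mm10 and computed RPKM for RefSeq genes with rpkmforgenes from uniquely placed reads, and these RPKM were deposited. Before that, they had filtered cells on reads, mapping, genes detected and mitochondrial expression, and taken out doublets found by Scrublet. The human part of the study is not analysed here.

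Because RPKM are not counts, count models were not applied. Exon reads per cell (median 87094 to 199983 per mouse) were estimated from the steps between low values, of which 72.3% in the median cell were within 0.05 of a whole multiple, and 95% of 40 simulated cells were recovered within 2%. On the log2(RPKM + 1) scale used, a difference between low values is smaller than their true fold.

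Cells were clustered on 1000 variable genes (20 principal components, 15 nearest neighbours, spectral clustering) without the 7 genes and the pathway list. Each gene was centred within mice, which was chosen after first clusters split by mouse. Cluster numbers between 12 and 20 were tried in rising order until all 11 classes were named, which happened at 12. A cluster was named by the class whose markers stood highest in it, with at least 3 markers detected, and the cluster of monocyte-derived and dendritic cells was divided by k-means. Most markers came from the study's own cell type genes.

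Classes were compared with limma (3.58.1, no trend, R 4.3.3) with mouse as a term, over genes whose mean reached 0.5, with Benjamini-Hochberg adjustment over all genes at a threshold of 0.05. Diets were compared on mice with at least 5 cells of the class. In a simulation of the KC-like class contrast, 94% of genes shifted by 2 were called. Mouse numbers do not pair the diets in the labels, and 6 of 12 same-numbered pairs correlated above 0.1. In B cell-like cells same-numbered pairs were at 0.107 to 0.193 and differently numbered pairs at -0.171 to 0.038. In endothelial-like cells the ranges were -0.175 to 0.127 and -0.127 to 0.216. Named genes are the 7, the ligands and receptors of the list, and the 5 genes with the highest correlation of class means, of which 1 is not reported here; Spi1 was added after its values were seen, as was the 6-letter core after the 8-letter form found no match. The members and lists were chosen with earlier results of these data known.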

Additional observations from a re-analysis of the deposited data

Results flagged for a closer look

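Among 23 sets of 4 to 6 mice, each for a gene and class with a mean of at least 1, 2 had a mouse that stood far from the others; chance gives such a gap in about 1 of 20 sets. Csf1r in pDC-like cells was 4.29 in HFD mouse 3 and 1.26 to 1.64 in the other 3 mice with at least 3 cells. In that mouse the KC markers in pDC-like cells were at 0.384% of the KC-like level and Csf1r at 5.20%. Csf3r in cDC-like cells was 3.85 in ND mouse 3, from 4 cells, and 0 to 0.11 in the other 3 mice. The causes were not tested.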

How the results depend on the processing

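The highest class of each of the 6 genes tested kept its direction and its call under each alternative that could be fitted. Csf1 in endothelial-like cells (0.98) kept its direction, but with at least 1 cell per unit (0.92) it did not pass. The number of gene and class pairs called higher was 16. It was 9 with k-means clustering, 8 when genes were not centred within mice (an alternative chosen after seeing the data) and 5 with at least 5 cells per unit, where 9, 9 and 8 of the 11 classes had enough cells. Leaving out 1 mouse at a time gave 11 to 16 pairs, and without ND mouse 2, HFD mouse 1 or HFD mouse 3 the neutrophil-like class was left with too few mice and got no value. Csf1r in cDC-like cells passed neither with units weighted by cells (limma, adjusted p = 0.113) nor without either of 2 mice; Csf2rb did not pass in neutrophil-like cells with weighting (limma, adjusted p = 0.155) or in cDC-like cells with log2 of the mean RPKM (limma, adjusted p = 0.164). With no filter, Il34 was called higher in hepatocyte-like cells (0.12, limma, adjusted p = 0.0461) on the strength of 1 cell. The share of all genes called higher moved too: with log2 of the mean RPKM it was 2.96% in place of 43.5% in cDC-like, 6.11% in place of 20.5% in monocyte-derived macrophage-like, 10.97% in place of 4.75% in KC-like, 19.1% in place of 4.77% in B cell-like, 30.6% in place of 9.97% in T cell-like and 24.9% in place of 9.78% in endothelial-like cells, and with weighting 2.51% in place of 6.82% in neutrophil-like cells. For the diets, 0 of the 7 genes were called under any alternative, but 19 of their differences under single alternatives had the other sign; limma with a trend called 1 gene in KC-like, 3 in endothelial-like, 1 in T cell-like and 2 in B cell-like cells in place of 0, and without HFD mouse 2 1 gene was called in KC-like cells (limma, adjusted p = 0.0193). Shares of summed RPKM with each mouse left out were added after seeing the data. The mouse number as a replicate block, which the labels do not describe as a pairing, left the Csf1r difference in KC-like cells at -0.86 and 0 genes called, and correlations of same-numbered mice ran from -0.17 to 0.19. The 16 to 24 cells of the rarer myeloid classes limit what can be said of them.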
